A study of Microcebus murinus with 8 samples.

Results

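The miR-103 and miR-107 family was followed in blood plasma of the grey mouse lemur (Microcebus murinus, a small primate). Its members were taken by name, as the rows mmr-miR-103a, mmr-miR-103b and mmr-miR-107, which are 3 of the 108 microRNAs listed in each table. The rows of mmr-miR-103a and mmr-miR-103b held identical values in all 8 samples, so they were counted once and are called miR-103a here, with mmr-miR-107 called miR-107, which leaves 2 distinct members of 105 distinct microRNAs. The study compared 4 samples from animals fed a diet based on vegetable fat with 4 samples from animals fed a diet based on dairy fat. All samples were plasma of animals given as wild type, and the labels read here state no age, duration of feeding or baseline sample. The labels do not tie samples to animals, so p-values measure only the spread among the 8 samples, part of which may be technical. Samples carry the numbers of their titles, 5 to 8 for vegetable fat and 1 to 4 for dairy fat.

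MiR-103 and miR-107 are encoded within introns of the pantothenate kinase genes, which make the enzymes that start coenzyme A synthesis. MiR-107 lies in PANK1, and the miR-103a copies lie in PANK2 and PANK3, as known in human. Their mature strands share the seed, the stretch near the 5′ end that pairs with target messenger RNAs, and in human they differ at a base near the 3′ end. In mouse liver and fat the family lowers insulin sensitivity, with caveolin-1, a membrane protein that stabilises the insulin receptor, as a direct target. It also targets Dicer, the enzyme that cuts microRNA precursors. In human, the name miR-103b belongs to hairpins on the strand opposite miR-103a, and which entry the mouse lemur row follows is not given in the sources used here. Reads that end before the base where miR-103a and miR-107 differ could not be assigned to either one, so the division of reads between them is uncertain.

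Values are reads per 1000000 (RPM) of the 108 listed microRNAs, so each is a share of a fixed total. Within each sample the values were whole multiples of a common step, taken here as 1 read, which implied totals of 1061434 to 4004131 reads in the vegetable fat samples and 1408536 to 3437717 in the dairy fat samples. Plasma holds microRNAs from blood cells and organs, and a change in the number of source cells cannot be told apart from a change in release per cell. Of the markers listed for possible sources, 4 of 12 for red cells, 6 of 7 for platelets, 4 of 7 for leukocytes, 3 of 6 for adipose tissue and 0 of 3 for liver were among the 108. The 4 red-cell markers (miR-15a, miR-92a, miR-182 and miR-486) were above 0 in every sample and summed to 6.74 to 11.8% of reads on vegetable fat and 6.14 to 9.92% on dairy fat.

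MiR-103a was an abundant plasma microRNA on both diets. It stood at 11348, 12313, 18132 and 11545 RPM in vegetable samples 5, 6, 7 and 8, against 9701, 11598, 18838 and 10911 RPM in dairy samples 1, 2, 3 and 4. A single sample of each diet, vegetable sample 7 and dairy sample 3, lay far above the rest, and the diets overlapped. Among the 105 distinct microRNAs it ranked 10 to 11 by level in the vegetable fat samples and 10 to 13 in the dairy fat samples. These values rested on 12254 to 72604 implied reads per sample on vegetable fat and 13664 to 64758 on dairy fat.

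MiR-107 was scarcer and more variable. Its level was 2303, 2038, 3660 and 2321 RPM in vegetable samples 5, 6, 7 and 8, against 1111, 1744, 4176 and 1784 RPM in dairy samples 1, 2, 3 and 4. The same 2 samples were highest, dairy sample 1 was lowest, and the range of the vegetable fat samples lay inside that of the dairy fat samples. Its rank ran from 19 to 28 on vegetable fat and from 18 to 41 on dairy fat. It rested on 2464 to 14655 implied reads on vegetable fat and 1565 to 14355 on dairy fat. Together the 2 members took 1.59% ± 0.39 of reads on vegetable fat and 1.50% ± 0.55 on dairy fat (SD, n = 4 each). The total includes the row of miR-103b, which is not counted in this share. If that row held separate reads, the family's share would be larger.

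**Figure D1:**
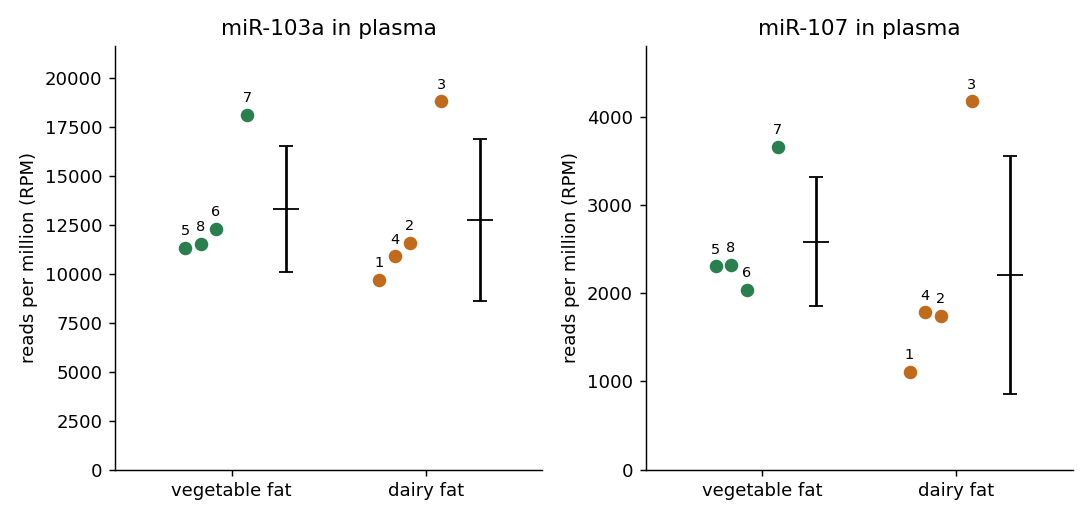
Level of miR-103a (left) and miR-107 (right) in RPM for each sample, with vegetable fat in green and dairy fat in orange. Points carry the sample numbers, and the bar beside them is the mean ± SD of 4 samples. Vegetable sample 7 and dairy sample 3 are the highest of their diets in both panels.

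In the order of mean level over the 8 samples, miR-103a was the tenth microRNA, between miR-26a and let-7c. Neighbours were picked by mean level in these same samples. Their p-values therefore reuse the values that set the order and give no independent support for it. MiR-26a averaged 23265 ± 2913 RPM and exceeded miR-103a in all 8 samples, with a mean log2 difference of miR-103a to miR-26a of −0.86 ± 0.41 (SD, n = 8; two-sided exact sign-flip permutation test, p = 0.00781, the smallest it can give, adjusted p = 0.0312 over 4 such comparisons). Let-7c averaged 12717 ± 3048 RPM and was not separated from miR-103a (mean log2 difference 0.04 ± 0.70, exact permutation p = 0.898, adjusted p = 0.898, miR-103a higher in 2 of 8 samples). MiR-107 was number 25 of the order, between miR-140 at 2536 ± 638 RPM and miR-342 at 2325 ± 1280 RPM. Neither neighbour differed from miR-107 beyond the spread (exact permutation p = 0.258 and 0.758, adjusted p = 0.516 and 0.898, n = 8).

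The ratio of miR-107 to miR-103a within a sample does not depend on the scaling between samples. It was 0.203, 0.166, 0.202 and 0.201 in vegetable samples 5, 6, 7 and 8, against 0.115, 0.150, 0.222 and 0.163 in dairy samples 1, 2, 3 and 4. Vegetable samples 5, 7 and 8 were nearly equal and vegetable sample 6 was lower, while the dairy fat samples spread on both sides of them. Put as a share, miR-107 made up 14.2 to 16.9% of the family's reads on vegetable fat and 10.3 to 18.1% on dairy fat. The lowest share was 10.3%, in dairy sample 1, with a 95% Wilson interval of 9.80 to 10.8%. The highest was 18.1%, in dairy sample 3, with an interval of 17.9 to 18.4%. These intervals cover counting error only, as reads from amplified libraries are not independent molecules. If the rows of miR-103a and miR-103b each held separate reads, the ratio of miR-107 to their sum ran from 0.0828 to 0.101 on vegetable fat and from 0.0573 to 0.111 on dairy fat, and its log2 difference between the diets was the same.

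**Figure D2:**
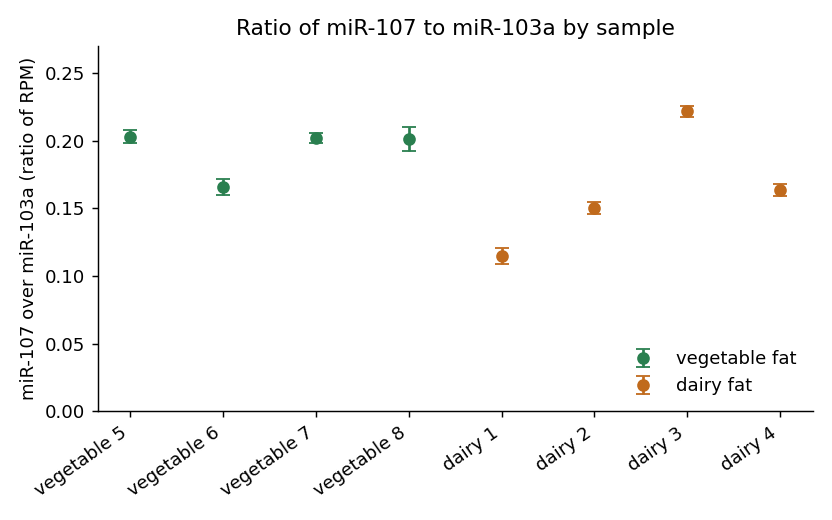
Ratio of miR-107 to miR-103a (RPM over RPM) for each sample, vegetable fat in green and dairy fat in orange. Bars are 95% Wilson counting intervals. Vegetable samples 5, 7 and 8 sit between 0.201 and 0.203, and the dairy fat samples range from 0.115 to 0.222.

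The diets were compared to ask whether the family's plasma level went with the kind of fat eaten. MiR-103a averaged 13334 ± 3226 RPM on vegetable fat and 12762 ± 4126 RPM on dairy fat (SD, n = 4 each). On the log2(RPM + 1) scale the difference was 0.08 ± 0.25 (SE), with a 95% interval of −0.48 to 0.65, or 0.719 to 1.56 as a fold (limma, adjusted p = 0.999). MiR-107 averaged 2580.5 ± 731.2 RPM on vegetable fat and 2203.6 ± 1350.4 RPM on dairy fat, a log2 difference of 0.37 ± 0.39 (SE) with an interval of −0.51 to 1.24, or 0.702 to 2.37 as a fold (limma, adjusted p = 0.999). Neither member passed the test. Limma called 0% of the 104 microRNAs tested (0 at an adjusted p under 0.05 and 0 at an unadjusted p under 0.05), and the family's count of 0 equals that background. Each of the 4 vegetable fat samples exceeded the median of the dairy fat samples for both members, and none exceeded dairy sample 3, the highest. With upper quartile factors the estimate was −0.13 for miR-103a and 0.15 for miR-107, but the median of all microRNAs was then −0.15 in place of 0.07. With the trimmed mean and with median-of-ratios factors the estimate of miR-103a kept its sign, at 0.10 and 0.08.

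Single samples moved the miR-107 difference in both directions. It rose to 0.73 without dairy sample 3 (limma unadjusted p = 0.0409, adjusted p = 0.957). It fell to 0.10 without dairy sample 1 and to 0.19 without vegetable sample 7. The difference of miR-103a was 0.29 without dairy sample 3, −0.07 without vegetable sample 7 and −0.03 without dairy sample 1.

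The sum of both members does not depend on how reads were divided between them, if no read was counted for both, dropped or shared with miR-103b. How reads were counted is not given. The sum gave a log2 difference of 0.12 with an interval of −0.75 to 1.01 (two-sided exact permutation test over 70 assignments, p = 0.543). The log2 ratio of miR-107 to miR-103a averaged −2.38 ± 0.14 on vegetable fat and −2.66 ± 0.39 on dairy fat (SD, n = 4 each). Its difference of 0.28, a fold of 1.22, had an interval of −0.42 to 0.83 and an exact permutation p of 0.257, where 0.0286 is the smallest this design can give. Of the dairy fat samples 3 lay below every vegetable fat sample, and dairy sample 3 lay above them all. The ratio difference was 0.44 without dairy sample 3 (exact permutation p = 0.0571) and 0.13 without dairy sample 1 (exact permutation p = 0.457).

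Levels of the 2 members went together across samples. Over all 8 samples Pearson's r on the log2 scale was 0.929 (exact permutation p = 0.00203, adjusted p = 0.0142 over 7 relations computed), and Spearman's rho was 0.738 (exact permutation p = 0.0458, adjusted p = 0.321). Vegetable sample 7 and dairy sample 3 stood apart from the other 6 samples, and among those 6 r was 0.826 (exact permutation p = 0.0653, with fewer samples). With median-of-ratios scaling, added after seeing the data, r was 0.954 over 8 samples and 0.866 over those 6 (exact permutation p = 0.000967 and 0.0292). That scaling divides both members by the same factor, which by itself can raise r. These values therefore give no support beyond that on RPM. Both members are shares of one total and may exchange reads, which also enters this relation. On RPM, miR-107 and miR-1839 had the highest r with miR-103a, both 0.929, and miR-103a was second to miR-128 for miR-107. With median-of-ratios scaling miR-107 was number 4 for miR-103a, after miR-128, miR-15a and miR-146b, and miR-103a was number 3 for miR-107.

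**Figure D3:**
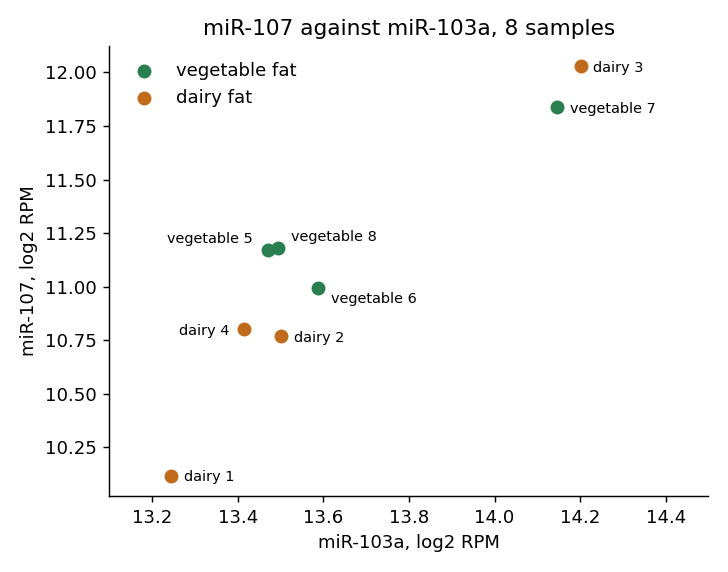
MiR-107 against miR-103a, both in log2 RPM, one point per sample, vegetable fat in green and dairy fat in orange. Vegetable sample 7 and dairy sample 3 lie at the upper right, dairy sample 1 at the lower left and the other 5 samples between them.

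On RPM, neither the level of the members nor their ratio had a relation to read totals that passed the test. With median-of-ratios scaling the rank relation of both members passed it, but the scaling factors themselves went with read total. On RPM, with the log2 read total, r was 0.548 for miR-103a, 0.504 for miR-107 and 0.371 for the ratio, with rho of 0.524, 0.548 and 0.619 (exact permutation p of 0.133, 0.201 and 0.359 for r and 0.197, 0.171 and 0.115 for rho; smallest adjusted p = 0.344). Without the 2 samples farthest from the median read total, vegetable sample 8 and dairy sample 1, r was 0.431, 0.485 and 0.487. The 2 samples with the most miR-103a were also the 2 deepest libraries, at 4004131 and 3437717 implied reads. The part of depth in the levels of these 2 samples was not tested. With log2 read total as a covariate, the diet difference was 0.15 for miR-103a (interval −0.34 to 0.64) and 0.48 for miR-107 (interval −0.18 to 1.14; limma, adjusted p = 0.930 for both). With median-of-ratios scaling, added after seeing the data, rho with read total was 0.905 for miR-103a and 0.952 for miR-107 (exact permutation p = 0.00456 and 0.00114, adjusted p = 0.0106 and 0.00399), and r was 0.799 and 0.697 (exact permutation p = 0.0187 and 0.0614, adjusted p = 0.0655 and 0.143). Without vegetable sample 8 and dairy sample 1 these r values were 0.653 and 0.646 (exact permutation p = 0.135 for both). The factors were 1.24, 1.30 and 1.09 in vegetable sample 8, dairy sample 1 and vegetable sample 6, the shallowest libraries. They were 0.801 in vegetable sample 7, the deepest, and 0.868 to 0.939 in the rest. Dividing by them raises any microRNA in deep libraries against shallow ones, so the scaled relations cannot separate the members from the scaling. The ratio does not change with scaling. On RPM, with the summed red-cell markers, r was −0.299 for miR-103a, −0.106 for miR-107 and 0.127 for the ratio, with rho of −0.238, 0.0952 and 0.286 (exact permutation p of 0.504, 0.804 and 0.774 for r and 0.582, 0.840 and 0.501 for rho; smallest adjusted p = 0.679). Without vegetable sample 7 and dairy sample 2, the farthest from the median of that sum, r was −0.127, 0.0704 and 0.249. With median-of-ratios scaling r was above 0 for both members, at 0.143 for miR-103a and 0.331 for miR-107, and it was 0.578 for the ratio (exact permutation p = 0.730, 0.429 and 0.135, smallest adjusted p = 0.236). There the marker sum and both members were divided by the same factor, which by itself can raise r for the members. MiR-486 made up 81.4 to 90.2% of that sum on vegetable fat and 84.2 to 89.4% on dairy fat. The sum therefore says little of the scarcer markers. Of these, miR-15a had an r of 0.890 with miR-103a and 0.921 with miR-107 on RPM. MiR-15a is named because it ranked among the 5 microRNAs nearest to each member in these same data. MiR-92a, miR-182 and miR-486 were not among the 5 nearest to either member, and their single r values are not given here. MiR-15a alone therefore does not stand for the red-cell markers. Vegetable sample 7, high in the family, had a red-cell sum of 6.74%, and dairy sample 3, also high, had 9.64%.

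MiR-107 varied more between samples than miR-103a. The SD of log2(RPM + 1) over 8 samples was 0.35 for miR-103a and 0.61 for miR-107, with counting errors of 0.0090 and 0.022 expected from the implied reads alone. Within vegetable fat the SD was 0.32 for miR-103a and 0.37 for miR-107, and within dairy fat it was 0.42 and 0.80. Of 101 distinct microRNAs tested, miR-103a was number 25 and miR-107 number 61 counted from the smallest SD, and the median SD was 0.49. MiR-103a has been proposed as a reference for normalising plasma and serum assays. Among the 20 most abundant microRNAs, whose median SD was 0.37, it was number 9 from the steadiest. The scaling changed this place, since with median-of-ratios factors the SD of miR-103a was 0.53, number 50 of 101, and that of miR-107 was 0.78, number 81.

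**Figure D4:**
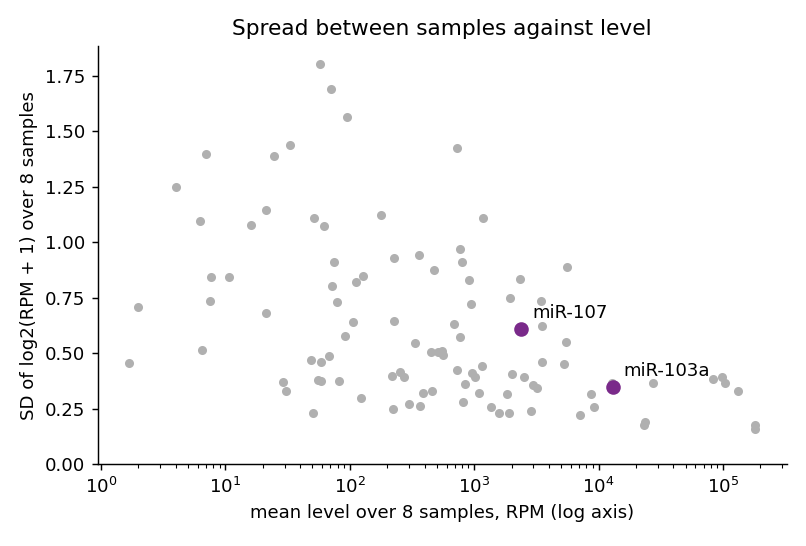
SD of log2(RPM + 1) over 8 samples against mean level in RPM (log axis) for the 101 distinct microRNAs tested, with miR-103a and miR-107 in purple. MiR-103a lies at an SD of 0.35 and miR-107 at 0.61.

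MicroRNAs with a pattern like that of the family were ranked by Pearson's r over the 8 samples, given here as a description, since all share library and total. Nearest to miR-103a outside the family were miR-1839 (r = 0.929), miR-128 (0.922), miR-146b (0.890), miR-15a (0.890) and miR-18 (0.863). Nearest to miR-107 were miR-128 (0.963), miR-15a (0.921), miR-1839 (0.913), miR-148b (0.882) and miR-374a (0.882). MiR-128, a microRNA enriched in neurons that also targets insulin receptor transcripts, miR-15a and miR-1839 stood in both lists. With median-of-ratios scaling these r values lay between 0.924 and 0.968, with the same factor dividing both sides of each pair. Measured by ratio, miR-103a moved most closely with miR-128: the ratio of miR-103a to miR-128 was 3.62, 4.30, 4.52 and 3.75 in vegetable samples 5, 6, 7 and 8, and 4.64, 3.65, 4.11 and 4.07 in dairy samples 1, 2, 3 and 4. The SD of that log2 ratio was 0.14, the smallest of 100 partners of miR-103a, whose median was 0.64. MiR-107 was number 12 of these partners with an SD of 0.31.

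The extended group of miR-15 and miR-107 holds microRNAs that share the motif AGCAGC near the 5′ end with miR-103 and miR-107 and that act on overlapping targets of cell growth and metabolism. Of 8 others in the group, miR-15a, miR-195, miR-424 and miR-497 were listed. None of the 4 passed the test (limma, adjusted p = 0.999 for each), with 3 estimates above 0 and 1 below and a median of 0.16, beside 64 above and 40 below and a median of 0.07 over all 104. MiR-15a, which is abundant in red cells, stood at 1964, 1111, 3894 and 1475 RPM in vegetable samples 5, 6, 7 and 8, against 801, 1585, 3218 and 1509 RPM in dairy samples 1, 2, 3 and 4. Its highest samples were those of miR-103a and miR-107, vegetable sample 7 and dairy sample 3, and the diets overlapped (log2 difference 0.26 ± 0.48 SE). MiR-424, which in human comes from a cluster on the X chromosome, stood at 25.6, 150.4, 25.2 and 104.6 RPM in vegetable samples 5, 6, 7 and 8, against 66.0, 65.7, 16.9 and 39.6 RPM in dairy samples 1, 2, 3 and 4. Its lowest values were in the 2 samples where the family was highest, the opposite of miR-15a. Vegetable sample 5, where the family was not high, was nearly as low as vegetable sample 7. The difference of miR-424 between the diets was 0.44 ± 0.70 (SE). For miR-195 and miR-497 the differences were −0.15 ± 0.31 and 0.07 ± 0.56 (SE).

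Other microRNAs linked to insulin signalling, glucose handling or the beta cell in human or rodent did not pass the test either. Of 37 on that list, 22 were listed, among them the let-7 family, which acts on the insulin receptor and its substrate, and the miR-29 family, which acts on insulin signalling in liver and muscle. Limma called 0 of the 22, and their estimates ran from −0.34 to 0.44 with 12 above 0 and 10 below. Their median was 0.01, and 8 of 22 lay above the median of all microRNAs. With upper quartile factors 3 of 22 were above 0, beside 28 of 104 overall. The largest were miR-424, given above, miR-126, an endothelial microRNA that targets insulin receptor substrate 1 (−0.34 ± 0.54 SE), and let-7a (−0.29 ± 0.21 SE).

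**Figure D5:**
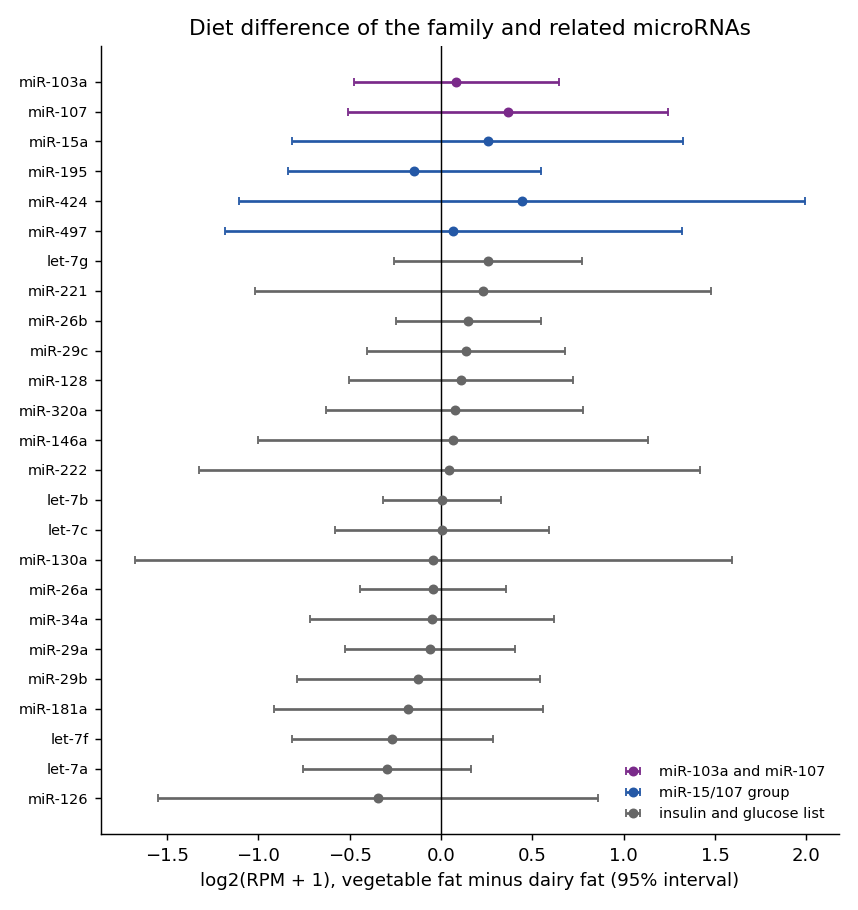
Difference between the diets (vegetable fat minus dairy fat, log2(RPM + 1)) with limma's 95% interval for miR-103a and miR-107 (purple), the other listed microRNAs of the extended group of miR-15 and miR-107 (blue) and the insulin and glucose list (grey; miR-195, miR-424 and miR-497 belong to both and are drawn in blue). Every interval spans 0, and those of miR-103a and miR-107 run from −0.48 to 0.65 and from −0.51 to 1.24.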

How the data were processed

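The labels' protocols name the miRNeasy Micro kit for plasma RNA and the QIAseq miRNA kit for libraries. Cutadapt 3.4 appears in the submitters' processing notes, and alignment, counting, molecular identifiers and filters are not given in the sources used. The deposited values are RPM that sum to 1000000 over the 108 listed microRNAs. Tables were assigned by sample title, and headers in the vegetable fat group number the samples differently. Every value above 0 was within 0.01 of a whole multiple of the sample's step, from which read totals were implied.

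Limma 3.58.1 (R 4.3.3; trended and robust variance) was fitted to log2(RPM + 1) of the 104 microRNAs that reached 1 RPM in 4 or more samples. P-values were adjusted by Benjamini-Hochberg, with 0.05 as the threshold. Such fold changes understate those of scarce microRNAs. The ratio and the sum were compared by exact permutation, with intervals of the shifts that test does not reject at 0.05 (scipy 1.17.1). The members, lists, tests and alternatives were chosen with earlier results of these data known. Named are the members, their neighbours in level, the 5 microRNAs with the highest r to each, and the 3 members of each list with the largest estimates. MiR-497 and the red-cell markers were added after their values were seen. List names were matched exactly. Limma was checked on simulated data with independent noise and changes far larger than the family's. That check does not bear on differences of the size estimated here. The exact permutation test between the diets was compared with scipy on random values.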

Additional observations from a re-analysis of the deposited data

Results flagged for a closer look

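Of 8 groups of 4 samples examined (miR-103a, miR-107, their sum and their ratio on each diet), 3 held a sample far from the others by Dixon's criterion, where chance flags about 1 group in 20, and the 4 measures overlap. MiR-103a in vegetable sample 7 was 18132 RPM, with the other vegetable fat samples at 11348 to 12313 RPM. The sum of both members was 21792 RPM in that sample, against 13650.1 to 14351.2 RPM in the others. MiR-107 in that sample fell just short of the criterion, with a gap of 0.825 of the group's range. The ratio of miR-107 to miR-103a was 0.166 in vegetable sample 6, and 0.201 to 0.203 in the other vegetable fat samples. In dairy fat none of the 4 measures was set apart in this way, with gaps of up to 0.793 of the range.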

How the results depend on the processing

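Limma called 0 microRNAs under each of 18 alternatives, with 0 to 4 at an unadjusted p under 0.05 and smallest adjusted p values from 0.560 to 1.00, and without one sample the count stayed at 0. MiR-107 and the ratio kept their sign, not passing the test, in 18 and 12 alternatives, and without one sample ran from 0.10 to 0.73 and from 0.13 to 0.44. MiR-103a changed sign, uncalled, in 5 of 18: −0.13 with upper quartile factors, −0.0080 without the 6 most abundant microRNAs, −0.061 without the shallowest and the deepest library, and 2 left-out samples within a range of −0.072 to 0.29. The sum did so in 4 of 14: −0.094 with upper quartile factors, −0.034 without those libraries, and within a left-out range of −0.038 to 0.35. The cause was not tested. With median-of-ratios scaling, chosen after seeing the data, r with the red-cell markers was 0.143 for miR-103a, 0.331 for miR-107 and 0.578 for the ratio. The same factors divided the markers and both members. The edgeR and DESeq2 alternatives were not run, since the deposited unit is RPM and the read numbers are only implied by it. No paired analysis was possible because the labels do not tie samples to animals. With 4 samples per diet, a difference of miR-107 up to 2.37-fold lay within its interval.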
